A study of Mus musculus with 6 samples.

Results

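The population described here is the Gpnmb Trem2 macrophages of mouse tibialis anterior muscle 3 days after injury with cardiotoxin, a snake venom toxin that kills muscle fibres and is followed by regeneration. A barcode, the tag of a single droplet, was taken as a member from its own counts of unique molecular identifiers (UMIs, each a captured RNA molecule). It needed at least 500 UMIs, at least 200 genes, at most 10% mitochondrial UMIs and at least 2 UMIs of the macrophage genes Csf1r, Fcgr1 and Ms4a7 together, with no UMI of the dendritic cell gene Cd209a. Its summed Gpnmb, Trem2 and Syngr1 UMIs had to reach 3 and exceed both the Cx3cr1, Ms4a4c and Fcgr4 sum and the Folr2, Cbr2 and Ccl8 sum. In the 2 day 3 libraries together, 5447 barcodes met this rule, out of 10903 that passed the macrophage gate, 17660 that passed the quality limits and 68724 deposited in all 6 libraries of the series.

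All mice were labelled wildtype, and no other allele or agent than cardiotoxin was named. Mononucleated cells from the tibialis anterior of both hindlimbs, sorted to leave out dead cells that stain with propidium iodide, were collected at zeitgeber time 4 or 16 (ZT4 and ZT16, hours into the light-dark cycle). Collections were made on day 0 (uninjured), day 1 and day 3, with 1 library for each day and time. The strain, sex, age and number of mice per library are not given in the sources used here. With 1 library per group there was no test between groups. The printed 95% intervals (exact binomial for shares, conditional binomial for ratios of UMIs) cover counting error only, and mouse-to-mouse variation was not measured.

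Gpnmb encodes a transmembrane glycoprotein of lysosomes and phagosomes that macrophages make when they take up lipid and cell debris. Trem2 encodes a surface receptor for lipids, lipoproteins and dying cells, which signals through the adaptor TYROBP. In regenerating muscle, monocytes enter from the blood, become inflammatory macrophages that clear dead fibres, and are then followed by macrophages that secrete growth factors for muscle stem cells. Macrophages with high Gpnmb and Trem2 are known from fatty liver, atherosclerosis, obesity and demyelination as well as from injured muscle.

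The ZT4 library gave 3042 members, 53.5% of its 5682 gated barcodes (95% interval 52.2 to 54.8), and the ZT16 library gave 2405, 46.1% of 5221 (44.7 to 47.4). Of all barcodes that passed the quality limits, members made up 32.1% at ZT4 and 29.4% at ZT16. Members had a median of 12905 UMIs and 3110 genes at ZT4 and of 13328 UMIs and 3139 genes at ZT16, so depth was close in the 2 libraries. The same rule found 23 and 39 barcodes in the uninjured libraries, which were too few to describe. On day 1 it found 1323 barcodes at ZT4 (28.3% of the gate) and 2282 at ZT16 (44.0%). These are shares of a sorted suspension and not cell numbers per muscle.

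The members were compared inside each library with the other gated barcodes, and with 2 populations defined in mirror image: 1641 and 1882 barcodes in which the Cx3cr1, Ms4a4c and Fcgr4 sum led (Cx3cr1-led), and 658 and 650 in which the Folr2, Cbr2 and Ccl8 sum led (Folr2-led). Paired values are given for the ZT4 library first and the ZT16 library second. Levels are CPM, the UMIs of a gene per 1000000 UMIs summed over a population. A gene is called higher or lower when its level differs by at least 1.5-fold in the same direction in both libraries, with 0.5 UMI added to each count and at least 30 UMIs in each library. Because the members were chosen from the same cells, their differences from other day 3 macrophages are a description.

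Gpnmb (chr6:49036546-49070929, plus strand, GENCODE vM21 on GRCm38), Trem2 (chr17:48346401-48354147, plus strand) and Syngr1 (chr15:80091334-80119501, plus strand), which encodes a synaptic vesicle membrane protein, chose the members. In the members Gpnmb stood at 944 and 1300.2 CPM, Trem2 at 1229 and 1165 CPM, and Syngr1 at 442 and 466 CPM. Other gated barcodes had Gpnmb at 64.6 and 80.2 CPM but Trem2 at 432 and 394 CPM. Because these genes chose the members, both sets of levels are partly fixed by the rule. Members held 91.8% and 92.1% of all Gpnmb UMIs of their library, 88.4% and 87.7% of Syngr1 UMIs and 77.0% and 73.8% of Trem2 UMIs.

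The limit of the rule fell in a continuous range. The median sum of the 3 selecting genes was 27 and 31 UMIs, and 33 and 23 members had exactly 3. A further 26 and 19 barcodes led with exactly 2 and stayed outside, 141 and 114 members led by 1 UMI, and 130 and 104 barcodes with 3 or more were tied. Another 59 and 42 barcodes met every criterion except for a Cd209a UMI. All 3 selecting genes were detected in 2137 and 1878 members, while Gpnmb was at 0 in 665 and 298 of them and Trem2 in only 2 and 4.

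Gdf15, which encodes a secreted TGF-beta family member that is induced by stress and damage and acts on the brainstem, was listed as a marker but was not part of the rule. Its level was 233 and 211 CPM in members, 108 and 80.2 CPM in Cx3cr1-led and 115 and 73.2 CPM in Folr2-led macrophages. Members held 69.5% and 69.3% of the Gdf15 UMIs of their library. After thinning each barcode to 5000 UMIs, which left out 68 and 64 shallower members, 29.0% and 27.6% of members had a Gdf15 UMI (38.5% and 37.5% without thinning), against 11.6% and 10.5% of Cx3cr1-led barcodes (63 and 103 left out). In Folr2-led barcodes the thinned share was 17.5% and 13.7% (35 and 52 left out). In stromal barcodes, taken as a background from free RNA, it was 0.962% and 0.573% (3.80% and 2.67% without thinning). Their median depths were 20852 and 21572 UMIs, so thinning removed more of their UMIs than of the members'. Myogenic barcodes gave 2.53% and 2.20% (17.6% and 17.5% without thinning). Of neutrophil barcodes, nearly all too shallow to thin, 8.74% and 5.56% had a Gdf15 UMI. Members had a mean of 3.25 and 2.97 Gdf15 UMIs and a median of 0, and the share with a UMI depends on depth. No measurement here bears on repair, and the macrophages are therefore named by their selecting genes.

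Macrophage genes were present in the summed counts of members: Adgre1, which encodes F4/80, stood at 364 and 341 CPM (337 and 290.0 in other gated barcodes) and Mertk at 76.3 and 95.9 CPM. Summed counts do not show the identity of each barcode, and clusters led by genes of other cells are described below. Of 11 marker lists of other cells, the highest summed level in members was that of the stromal list, 408 and 419 CPM, against 683 and 532 in Cx3cr1-led and 1245 and 458 in Folr2-led macrophages. The B cell list came to 196 and 152 CPM, with Pax5 at 0 in both libraries, and the neutrophil list to 79.5 and 94.4 CPM, with Camp at 0 in both. At least 5 UMIs of the B cell list were held by 23.6% and 16.8% of members. The other 8 lists lay between 0.259 and 110 CPM. A simulated-doublet score marked 10.6% and 8.27% of members, 8.47% and 6.48% of Cx3cr1-led and 5.93% and 3.23% of Folr2-led barcodes. No doublet was removed in the main values. The part of other-cell transcripts in the differences below was tested only by leaving out the marked barcodes.

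Among genes outside the rule, the fatty acid chaperone gene Fabp5 and the osteopontin gene Spp1 had the highest levels of the 15 most different genes after the protease Ctsd. Over all 12697 genes measured, 2.69% were higher and 12.8% were lower in members (341 and 1628 genes). Without dividing barcodes the lower count was 1056, and on counts thinned to 5000 UMIs, where fewer genes reach 30 UMIs, it was 767. Marker genes of other cells were among the lower genes: 8 of 8 myogenic (medians -1.48 and -1.84), 7 of 8 mature muscle (-1.66 and -1.04) and 8 of 8 stromal genes (-1.22 and -0.96) were lower in members. Fabp5 was at 2832 and 2952 CPM in members, 436 and 356 CPM in Cx3cr1-led and 282 and 224 CPM in Folr2-led barcodes. Both libraries of members lay above every value of the other populations, by 7.33-fold and 9.11-fold over all other gated barcodes. Spp1, whose product is a matrix protein and cytokine, was at 2576 and 2356 CPM against 471 and 275 CPM in Cx3cr1-led barcodes. Fabp5 and Spp1 UMIs were not particular to macrophages: at 5000 UMIs, 71.6% and 66.7% of myogenic barcodes also had a Fabp5 UMI, beside 78.4% and 79.4% of members.

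**Figure D1:**
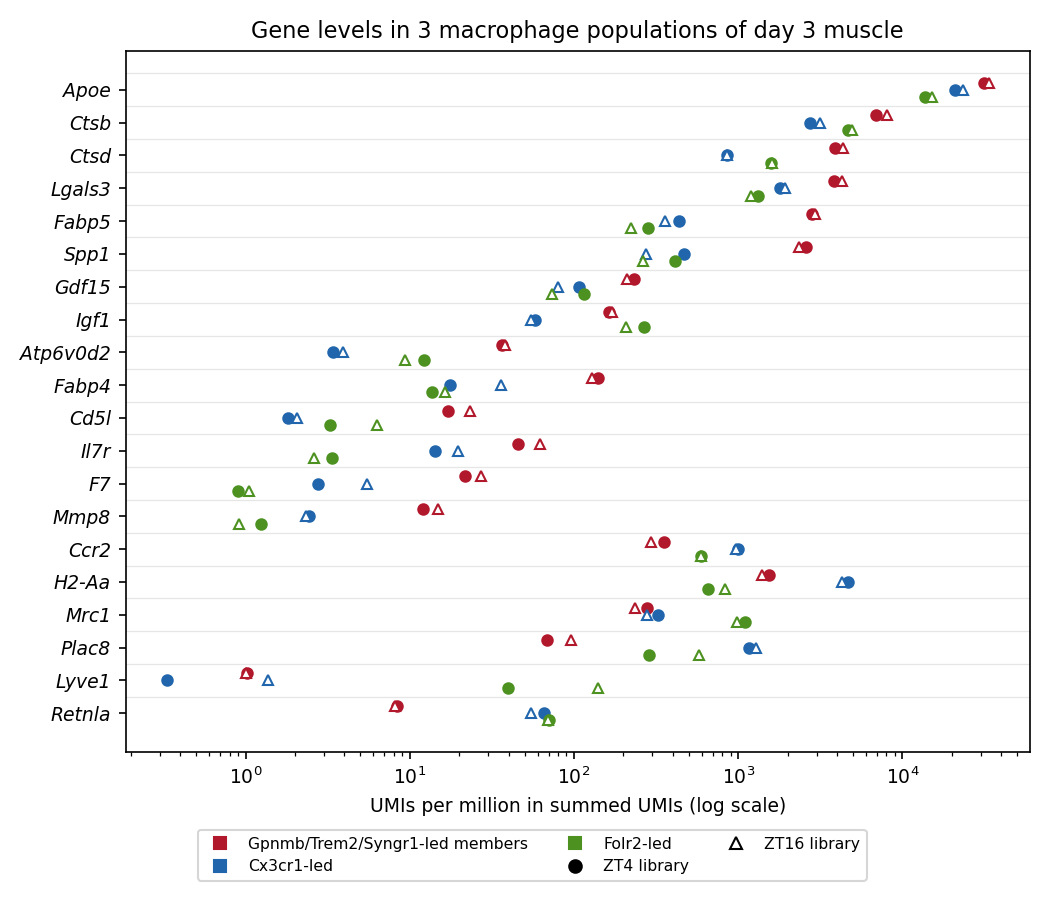
Levels of selected genes in CPM (log axis) in the members, the Cx3cr1-led and the Folr2-led macrophages of day 3. Circles are the ZT4 library and triangles the ZT16 library, and Fabp5 in members lies at 2832 and 2952 against 224 to 436 in the other populations.

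Several of the next highest genes were present at low levels. Cd5l, a secreted scavenger protein that macrophages make under control of the liver X receptor (LXR), was at 17.2 and 23.2 CPM in members and at 1.82 to 6.27 CPM in both comparison populations. F7, coagulation factor VII, was at 21.8 and 27.1 CPM against 2.75 and 5.46 CPM in Cx3cr1-led barcodes. Il7r, the interleukin-7 receptor, was at 45.9 and 62.2 CPM against 14.3 and 19.8 CPM. Mmp8, a collagenase best known from neutrophil granules, was at 11.98 and 14.8 CPM against 2.42 and 2.33 CPM in Cx3cr1-led barcodes. Beside it the neutrophil gene S100a8 was at 13.1 and 15.2 CPM in members and at 12.7 and 1.47 CPM in Cx3cr1-led barcodes. The remaining genes of the 15 highest were Atp6v0d2, Rnf128, Fabp4, Pianp, Slc6a8, Ctsd, Stra6l, AU022793 and Nav2, with log2 differences of 1.76 to 2.93 from other gated barcodes. On thinned counts the ZT4 difference was 1.84 in place of 2.59 for Atp6v0d2 and 1.57 in place of 2.18 for Il7r.

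Genes of lipid uptake and scavenging were the list with the largest share higher in members: 11 of 19 were higher and 1 was lower, with medians of 0.90 and 1.08 on the log2 scale, where the median of all genes was -0.08 and -0.10. Cd36, a fatty acid and oxidised lipoprotein receptor, was at 148 and 184 CPM against 57.5 and 52.6 CPM in other gated barcodes. Lgals3 (galectin-3) was at 3849 and 4284 CPM against 1583 and 1652 CPM, and the tetraspanin Cd9 at 334 and 261 CPM against 103 and 81.7 CPM. Apoe, the main apolipoprotein of macrophages, was at 31426 and 33551 CPM against 17455 and 20012 CPM. Ch25h, an enzyme that makes 25-hydroxycholesterol, was the lower gene, at 1.39 and 0.385 CPM against 4.01 and 2.20 CPM. Lpl (lipoprotein lipase) differed little at ZT4 (391 against 309.7 CPM) and more at ZT16 (287 against 136 CPM), and so it was not called. Against Cx3cr1-led barcodes 9 of the 19 genes were higher and 3 were lower, where 4.66% and 6.59% of all genes were. Against Folr2-led barcodes 11 of 18 were higher and 0 were lower, where 3.84% and 11.1% of all genes were.

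Lysosomal genes were next: 13 of 30 were higher in members and 0 were lower, with medians of 0.57 and 0.60. Ctsd, an aspartic protease of lysosomes, was at 3876 and 4323 CPM in members, 855 and 856 CPM in Cx3cr1-led and 1589.5 and 1618 CPM in Folr2-led barcodes. Psap, the precursor of the saposins that present sphingolipids to lysosomal hydrolases, was at 5106 and 6459 CPM against 2412 and 2984 CPM in other gated barcodes. Gla, the alpha-galactosidase that degrades globotriaosylceramide, was at 69.6 and 80.1 CPM against 39.1 and 38.7 CPM. Npc2, a cholesterol carrier of the lysosome lumen, was close to the other barcodes, at 1594 and 1727 CPM against 1419.7 and 1557 CPM. Against Folr2-led macrophages 7 of the 30 were higher, and against Cx3cr1-led macrophages 15. In those comparisons 3.84% and 4.66% of all genes were higher, and 11.1% and 6.59% were lower.

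Of the 16 subunits and accessory proteins of the V-ATPase, the proton pump that acidifies lysosomes, 3 were higher and 0 were lower. They were Atp6v0d2, a subunit isoform abundant in osteoclasts (36.3 and 38.1 CPM against 6.03 and 4.98 CPM in other gated barcodes), Atp6v1a (222 and 228 against 138 and 119 CPM) and Atp6v1c1 (101 and 103 against 62.5 and 54.5 CPM). Median differences over the 16 were 0.33 and 0.40. MITF, TFEB and TFE3 are transcription factors that bind the promoters of lysosomal genes at the sequence CACGTG. Their own mRNAs were within 1.5-fold of other gated barcodes: Tfeb at 26.5 and 32.0 against 23.0 and 23.3 CPM, Mitf at 37.4 and 36.7 against 35.3 and 31.6 CPM, and Tfe3 at 48.7 and 56.2 against 56.6 and 64.6 CPM. Of 10 genes of these factors and their regulators, 1 was higher and 0 were lower, while 3 were higher than in Cx3cr1-led barcodes, and 1 was higher and 2 were lower than in Folr2-led barcodes.

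CACGTG is also the E-box that clock factors bind. Promoter sequences are shown for the selecting gene Gpnmb and for 3 acid and lysosome genes that were higher in members and hold CACGTG. Each is the 250 bases before the RefSeq start on GRCm38.p6, written 5′ to 3′ on the gene's strand, with every CACGTG in capitals. They lie at chr6:49036268-49036517 (plus strand), chr7:142387828-142388077 (minus), chrX:134601006-134601255 (minus) and chr16:44139260-44139509 (minus).
Gpnmb: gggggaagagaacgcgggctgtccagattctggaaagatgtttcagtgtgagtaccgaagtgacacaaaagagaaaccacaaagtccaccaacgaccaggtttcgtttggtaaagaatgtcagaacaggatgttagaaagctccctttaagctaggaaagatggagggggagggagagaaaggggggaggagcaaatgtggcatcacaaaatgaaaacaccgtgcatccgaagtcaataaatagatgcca
Ctsd: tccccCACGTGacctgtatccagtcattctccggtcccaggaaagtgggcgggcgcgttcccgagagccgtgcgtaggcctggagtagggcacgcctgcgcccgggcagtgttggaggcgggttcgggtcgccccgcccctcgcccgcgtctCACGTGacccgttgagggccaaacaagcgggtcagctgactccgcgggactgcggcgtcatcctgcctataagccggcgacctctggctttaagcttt
Gla: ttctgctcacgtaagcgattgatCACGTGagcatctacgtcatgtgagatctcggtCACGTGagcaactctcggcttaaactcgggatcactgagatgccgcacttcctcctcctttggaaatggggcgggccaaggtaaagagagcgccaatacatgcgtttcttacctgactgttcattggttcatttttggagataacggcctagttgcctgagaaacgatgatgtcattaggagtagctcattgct
Atp6v1a: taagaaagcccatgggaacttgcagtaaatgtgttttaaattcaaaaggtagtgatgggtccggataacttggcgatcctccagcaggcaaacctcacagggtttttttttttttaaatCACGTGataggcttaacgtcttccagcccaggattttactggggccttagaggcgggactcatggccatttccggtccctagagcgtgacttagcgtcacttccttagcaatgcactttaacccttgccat
The Ctsd window held 2 copies, starting 245 and 98 bases before the start, and the Gla window 2 copies, at 227 and 194 bases. Atp6v1a had 1 copy at 131 bases and Gpnmb had none. The window of the selecting gene Trem2, which is not printed, also had none. CACGTG reads the same on both strands, and no other motif was searched. Counting 50 further bases after the start, it was found in 8 of the 23 lysosomal promoters that matched the RefSeq table (34.8%) and in 4 of 11 V-ATPase promoters (36.4%), against 1 of 16 lipid and scavenging promoters (6.25%) and 8.09% of 27025 genes. Of the 15 genes highest in members, 10 had a RefSeq promoter and 1 of them, Ctsd, held it (10%). Most promoters of the lysosomal and V-ATPase lists lacked it, so the 3 printed holders do not represent those lists. The lysosomal and V-ATPase lists include genes that were not higher in members. The share of holders among their higher genes was not counted. A match is a description of the letters, and binding was not measured.

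Partners of TREM2 and sterol synthesis genes were mostly alike in members and other macrophages, while part of the LXR list was higher in members. Of 11 genes of TREM2 signalling, 0 were higher and 2 were lower, and Tyrobp, the TREM2 adaptor, was at 3421 and 3321 CPM against 2594 and 2503 CPM in other gated barcodes. Nr1h3, which encodes the sterol-sensing receptor LXR alpha, was higher, at 43.9 and 64.4 CPM against 13.4 and 21.8 CPM. Of the 12 genes of the LXR list, 4 were higher and 0 were lower, and the apolipoproteins Apoc1 and Apoc2 were among them. The list medians were 0.25 and 0.29, against -0.08 and -0.10 over all genes, of which 2.69% were higher. The cholesterol exporter Abca1 was at 220.3 and 333 CPM against 200.02 and 270.3 CPM and was not called. Sterol synthesis genes showed 0 of 15 higher and 0 lower.

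Of 13 receptors and bridges for dying cells, 4 were higher and 1 was lower than in other gated barcodes, 7 higher and 1 lower than in Cx3cr1-led, and 4 higher and 4 lower than in Folr2-led barcodes. Integrin alpha-v (Itgav) was at 132 and 116 CPM against 67.4 and 53.9 CPM in other gated barcodes and integrin beta-5 (Itgb5) at 242 and 282 CPM against 114 and 131 CPM. Mfge8, the secreted bridge between those integrins and exposed phosphatidylserine, was at 24.1 and 22.7 CPM against 13.7 and 14.9 CPM. Axl was lower in members than in Cx3cr1-led barcodes (87.6 and 124 against 143 and 200.2 CPM), and Timd4 had 0 UMIs in both libraries of members, where a count of 0 allows up to 3. In iron handling, the ferritin chain Ftl1 was at 17682 and 17130.0 CPM against 8986 and 7789 CPM, and the divalent metal transporter Slc11a1 at 159 and 160.1 CPM against 89.1 and 93.6 CPM. Over 14 iron and haem genes, 3 were higher and 1, the haemoglobin scavenger receptor Cd163, was lower.

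Secreted growth factors differed by gene and by comparison, with 3 of 20 higher and 3 lower against other gated barcodes. Igf1, a growth factor for myoblasts, was at 164 and 169.7 CPM in members, above Cx3cr1-led (57.9 and 54.4 CPM) and below Folr2-led macrophages (265 and 208 CPM). Gdf3, a TGF-beta family ligand, was at 25.9 and 24.0 CPM against 13.6 and 12.3 CPM. Il10, an anti-inflammatory cytokine, was lower in members (21.1 and 26.9 CPM) than in Folr2-led macrophages (82.4 and 70.2 CPM). Fibronectin (Fn1) was at 172 and 142 CPM against 253 and 355 CPM in other gated barcodes and was under 1.5-fold lower at ZT4. Among 16 matrix proteases and inhibitors, 6 were higher, including Adam8 (46.2 and 53.0 against 17.7 and 18.1 CPM) and the membrane collagenase Mmp14 (60.8 and 60.9 against 31.2 and 35.4 CPM), and 2 were lower. Acp5, the tartrate-resistant phosphatase of osteoclasts, was at 166 and 162 CPM against 48.1 and 68.4 CPM.

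Of 14 monocyte genes 8, and of 13 resident macrophage genes 8, were lower in members than in other gated barcodes, and 0 were higher. Plac8, a gene of newly arrived monocytes, was at 68.1 and 95.4 CPM against 1172 and 1290.4 CPM in Cx3cr1-led barcodes. Ccr2, the receptor that draws monocytes out of the marrow, was at 354 and 293 CPM against 993 and 968 CPM, and Ly6c2 at 62.3 and 78.8 CPM against 541 and 681 CPM. The medians were -1.04 and -1.17 over the monocyte list and -1.36 and -1.28 over the resident list. Lyve1, a hyaluronan receptor of resident macrophages, was at 1.01 CPM in both libraries of members against 39.9 and 140.2 CPM in Folr2-led barcodes, and Cd163 at 3.42 and 4.44 CPM against 95.8 and 156 CPM. Against Folr2-led barcodes 12 of 13 resident macrophage genes were lower, and against Cx3cr1-led barcodes 3 were lower and 3 higher. The Folr2, Cbr2 and Ccl8 sum and the Cx3cr1, Ms4a4c and Fcgr4 sum had to trail in members and to lead in the comparison populations. The rule may therefore partly set the directions of the resident and monocyte genes. Mymk, a myoblast fusion gene, was also among the 10 lowest, at 2.62 and 1.42 CPM against 15.7 and 8.35 CPM in the other gated barcodes. Retnla, Ifitm6, Hp, Ly6a and Klrk1 were also among them.

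Inflammatory and interferon-induced genes were lower in members as well. Of 17 inflammatory genes 12 were lower than in other gated barcodes and 0 were higher. Ccl2, which attracts monocytes, was at 272 and 284 CPM against 727 and 714 CPM, and Il1b at 526 and 510.0 CPM against 872 and 831 CPM, although Il1b in Folr2-led macrophages was lower still (254 and 314 CPM). Of 17 interferon-induced genes 14 were lower. Isg15, a ubiquitin-like antiviral protein, was at 383 and 645 CPM against 1261 and 1642 CPM in Cx3cr1-led barcodes, a population chosen on genes that include the interferon-inducible Ms4a4c.

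Antigen presentation placed the members between the comparison populations. H2-Aa, an MHC class II chain, was at 1544 and 1404 CPM in members, 4662 and 4299.5 CPM in Cx3cr1-led and 651 and 834 CPM in Folr2-led barcodes. Of 11 MHC II and co-stimulation genes, 9 were lower than in Cx3cr1-led barcodes and 5 were higher than in Folr2-led barcodes, with 2 lower. The complement gene Cfb was at 28.3 and 36.4 CPM in members against 116 and 147 CPM in other gated barcodes, while C1qa (2466 and 2483 CPM against 2278 and 2541 CPM) differed little. Oxidative phosphorylation (0 of 23 genes higher or lower) and glycolysis (0 of 17 higher, 1 lower) were alike within 1.5-fold in nearly every gene.

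**Figure D2:**
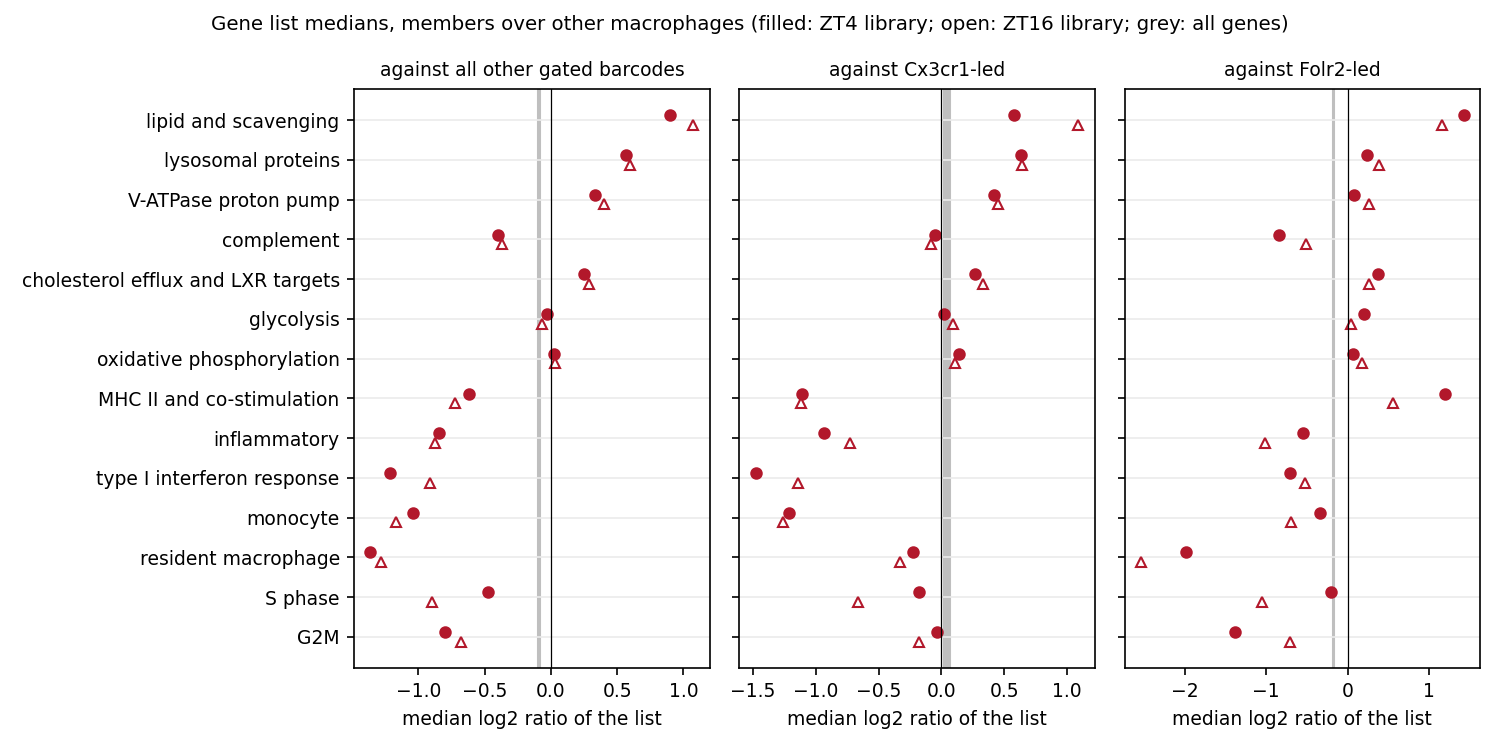
Median log2 ratio of each gene list, members over all other gated, Cx3cr1-led and Folr2-led barcodes of the same library; filled points are the ZT4 library, open points the ZT16 library, and the grey band is the median of all genes. Lipid and lysosomal lists lie to the right and monocyte, resident macrophage and interferon lists to the left against other gated barcodes, while MHC II changes side between the Cx3cr1-led and Folr2-led panels.

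A smaller share of members than of Folr2-led macrophages was dividing. At 5000 UMIs per barcode, 8.37% of 2974 members at ZT4 (7.40 to 9.43) and 5.64% of 2341 at ZT16 (4.74 to 6.65) had at least 3 UMIs of 20 G2M genes (15.8% and 12.9% without thinning). The same measure gave 6.46% and 4.89% in Cx3cr1-led and 21.7% and 12.04% in Folr2-led macrophages. Among the 20 G2M genes 14 were lower in members than in other gated barcodes, and 1 was lower than in Cx3cr1-led barcodes.

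Within the members, other genes followed the level of the selecting genes. Barcodes thinned to 5000 UMIs were split by their summed Gpnmb, Trem2 and Syngr1 UMIs into 3 to 9 (1144 and 797 barcodes), 10 to 19 (1085 and 887), 20 to 39 (534 and 514) and 40 or more (53 and 54). At ZT4, Fabp5 was at 1067, 2784, 6021 and 9476 CPM over these bands, and at ZT16 it went from 932 to 9482 CPM. Spp1 went from 1107 to 9079 CPM at ZT4 and from 824 to 9563 CPM at ZT16. The 30 lysosomal genes together went from 25742 to 62532 CPM and from 28305 to 59274 CPM. All bands kept the same order in both libraries for these 3 measures.

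Ccr2, H2-Aa and the mannose receptor gene Mrc1 ran the other way. Ccr2 went from 602 to 49.1 CPM at ZT4 and from 467.5 to 81.5 CPM at ZT16, and H2-Aa from 2564 to 415 CPM and from 2207 to 574 CPM. Mrc1 went from 413 to 60.4 CPM and from 379 to 63.0 CPM. The monocyte gene Ly6c2 had no such order, at 58.7, 71.7, 119.9 and 64.2 CPM at ZT4 and 60.5, 112.1, 99.6 and 77.8 CPM at ZT16. Apoe likewise showed no order, at 31303, 39229, 34582 and 36208 CPM at ZT4. Gdf15, in contrast, was higher in each successive band. It was at 196, 294, 356 and 430.2 CPM at ZT4 and at 179, 245, 274 and 315 CPM at ZT16. Median depth before thinning was 12264 UMIs in the lowest and 14173 in the highest band at ZT4, and its part in these orders was not tested beyond the thinning.

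**Figure D3:**
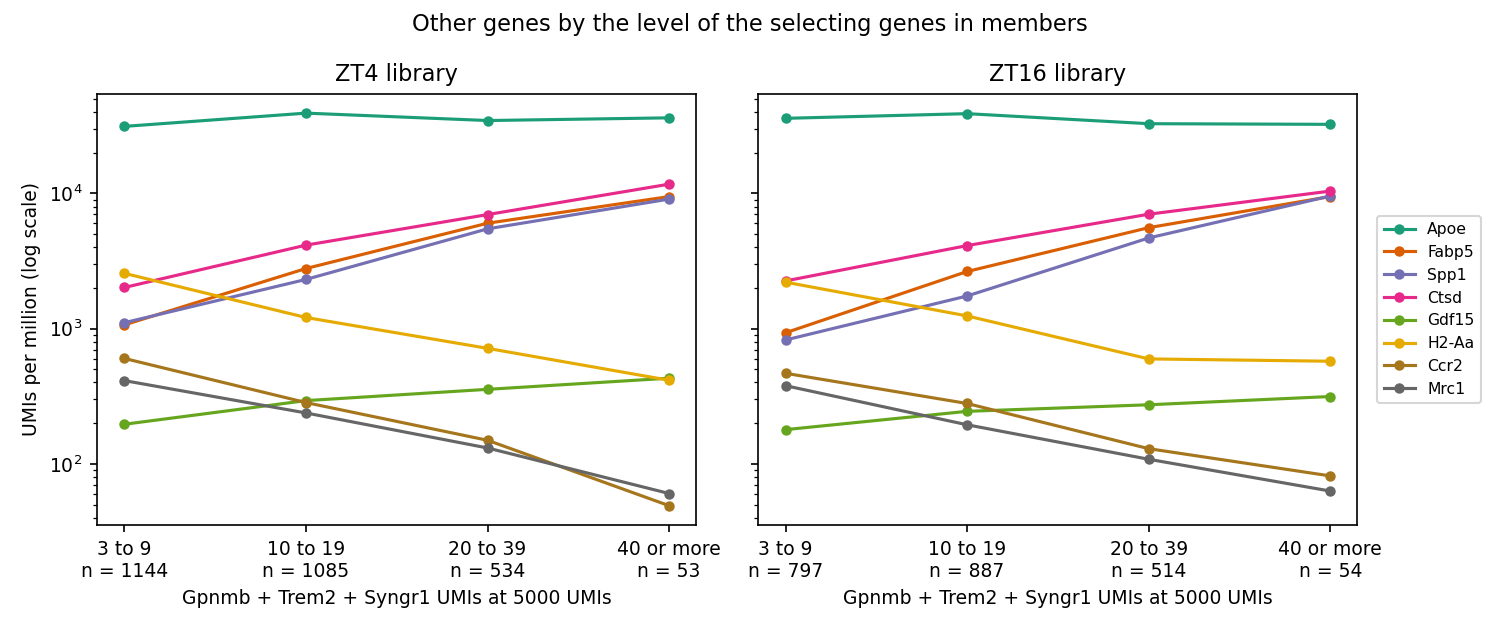
Levels in CPM (log axis) of selected genes in members grouped by their Gpnmb, Trem2 and Syngr1 UMIs after thinning to 5000 UMIs, with 1 panel per library and the number of barcodes under each band. Fabp5, Spp1 and Ctsd are higher in each successive band, Ccr2 and H2-Aa are lower, and the highest band holds 53 and 54 barcodes.

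Clustering of the members alone gave 8 clusters, which describe how they vary. Cluster 5, the largest (1742 barcodes, 32.9% and 30.8% of members), was led by Dnmt3aos, Mmp12, Il7r, F10, Fabp4 and Bhlhe41 and had the highest Gpnmb (1736 CPM), Fabp5 (6062 CPM) and Gdf15 (397 CPM) of all clusters. Cluster 4 (947 barcodes) was led by Pxdc1, Ocstamp, Dnase1l3, Tlr12, Tspan13 and Ptgs1, with Apoe at 50421 CPM against 23352 CPM in cluster 5. Cluster 6 (1123 barcodes) was led by the haemoglobin genes Hba-a2, Hbb-bt, Hba-a1 and Hbb-bs with Tnfsf9 and Ednrb, and had low Gpnmb (339 CPM) and the highest Ccr2 (626 CPM). Most haemoglobin UMIs of members lay in few barcodes, with 99.1% and 89.5% of Hbb-bs UMIs in 10.

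Cluster 2 (855 barcodes) was led by the interferon-inducible genes Ifit1bl1, Ifi44, Ifit3b and Ifi208 with Serpina3g and Tnfsf10, and held Isg15 at 1483 CPM. It took up 11.2% of members at ZT4 (10.1 to 12.4) and 21.4% at ZT16 (19.7 to 23.1). Cluster 3 (533 barcodes, 11.4% and 7.69%) was led by the mitotic genes Aspm, Cep55, Hmmr, Nusap1, Kif20a and Plk1. Its level of Ctsk, a collagen-degrading lysosomal protease of osteoclasts, was 131 CPM. Ctsk was more widely detected in stromal cells: on thinned counts 63.0% and 49.3% of stromal barcodes had a Ctsk UMI, against 4.98% and 4.91% of members. The part of stromal transcripts in the cluster 3 level was not tested. Clusters 1, 7 and 8 (113, 91 and 43 barcodes) were led by genes of other cells: Nkg7, Gzma, Rgs5, Ccl5, Col4a2 and Igfbp7 in cluster 1, Smoc2, Dcn, Pdgfra, Ptn, Angptl1 and Thbs4 in cluster 7, and Myl1, Tnnc2, Ckm, Acta1, Tnnt3 and Mylpf in cluster 8. In these clusters 65.5%, 74.7% and 48.8% of barcodes were marked as doublets, against 1.90% to 10.9% in the other 5.

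Time of day was read first from circadian clock genes. Between ZT4 and ZT16, Per2, a clock repressor, was at 1.04 and 3.64 CPM in members, a log2 difference of 1.80 (1.30 to 2.34). The other populations gave log2 differences of 1.37 (Cx3cr1-led) and 1.77 (Folr2-led). Cry1 was at 3.63 and 6.80 CPM (0.90, 0.61 to 1.21), and the clock output factor Tef at 14.3 and 23.8 CPM (0.73, 0.58 to 0.89). Of 5 Per and Cry genes, 2 were higher at ZT16 by 1.5-fold in members, 3 in Cx3cr1-led and 5 in Folr2-led macrophages, with medians of 0.45, 1.03 and 1.08. The activators Arntl (Bmal1), at 5.82 and 5.56 CPM, and Clock, at 20.7 and 21.4 CPM, had intervals that included 0. The heme receptor Nr1d1 (REV-ERB alpha) was at 8.86 and 6.39 CPM, a difference of -0.47 (-0.72 to -0.23).

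Of 12859 genes measured in members, 2.83% were higher and 7.36% were lower at ZT16 (364 and 947 genes). The lower count was 587 without the barcodes marked as doublets, 589 without dividing barcodes, 513 on thinned counts and 483 among genes with at least 100 UMIs. For the higher count only the 100 UMI minimum moved it by more than 1.5 times, to 197. In Cx3cr1-led macrophages 4.28% of genes were higher and 4.77% were lower at ZT16, and in Folr2-led macrophages 4.6% and 9.57%. With 1 library at each time, time of day and library cannot be told apart.

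Interferon-induced genes were the list with the most members higher at ZT16. In the Gpnmb Trem2 macrophages 10 of 17 were higher and 0 were lower, with a median of 0.74, against 1 of 17 and 0.28 in Cx3cr1-led and 4 of 17 and 0.52 in Folr2-led macrophages. Ifi44 was at 6.58 and 28.2 CPM (2.10, 1.91 to 2.30), Irf7, the transcription factor that amplifies interferon production, at 176 and 296 CPM (0.75, 0.71 to 0.80), and Oas3 at 41.1 and 88.9 CPM. Cxcl10, a chemokine induced by interferon gamma and type I interferon, differed less, at 286 and 328 CPM. In Cx3cr1-led macrophages Irf7 was at 684 and 829 CPM, so the levels in members stayed below theirs at both times. The difference between the populations was not tested.

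Cholesterol genes split by direction. The cholesterol exporters Abcg1 (149 and 260.0 CPM, log2 0.80) and Abca1 (220.3 and 333 CPM, 0.59) were higher at ZT16 in members. In Cx3cr1-led macrophages the differences were 0.64 and 0.52, and in Folr2-led 0.93 and 0.44, where Abca1 is under 1.5-fold. In members the Abca1 call was also lost without marked doublets (0.55), without dividing barcodes (0.55), on thinned counts (0.57) and on per-cell means (0.58). Of 15 sterol synthesis genes 4 were lower and 0 were higher in members, with a median of -0.39 against -0.20 and -0.10 in the comparison populations. Sqle (squalene epoxidase) was at 4.08 and 1.95 CPM and Fdps (farnesyl diphosphate synthase) at 32.0 and 19.8 CPM.

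The programme that set the members apart differed little with time. Over 30 lysosomal genes the median was 0.04, with 0 higher and 1 (Ctsk) lower. The Ctsk call was lost on thinned counts (-0.51) and without dividing barcodes (-0.58). Over 19 lipid and scavenging genes the median was -0.12, with 0 higher and 1 lower. Of the selecting genes, Gpnmb differed by 0.46 (0.44 to 0.48), Trem2 by -0.08 (-0.10 to -0.06) and Syngr1 by 0.08 (0.05 to 0.11). The rule partly fixes these values in both libraries, so they do not bear on how little the programme differed. Spp1 differed by -0.13 in members and by -0.78 in Cx3cr1-led and -0.64 in Folr2-led macrophages. Fabp5 differed by 0.06 in members and by -0.29 and -0.33 in the others.

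In members 4 of 20 G2M and 5 of 20 S phase genes were lower at ZT16 and 0 were higher, with medians of -0.39 and -0.34. In Cx3cr1-led macrophages 2 G2M genes and 0 S phase genes were lower. In Folr2-led macrophages 17 G2M genes were lower (median -1.08) while 7 S phase genes were higher (0.47). Without dividing barcodes both medians in members were -0.06, and on thinned counts the S phase median was 0.0054.

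Some genes with the largest time differences had the same direction in all 3 populations. Cirbp, the cold-inducible RNA-binding protein, was at 45.6 and 17.0 CPM (-1.42, -1.56 to -1.29) and differed by -1.26 and -1.06 in the comparison populations. Lars2 (224 and 568 CPM), Hist1h2ap (49.9 and 14.5 CPM) and Mid1 (6.01 and 19.1 CPM) likewise differed in the same direction in all 3 populations. Pdgfc, a growth factor for stromal cells, was at 4.13 and 8.34 CPM, Gbp8 at 1.91 and 3.88 CPM and Spata24 at 5.35 and 2.01 CPM.

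In other named genes 10 barcodes held a large share of the UMIs. For Thbs4 they held 87.3% and 95.3% of the UMIs of members, for Gzma 93.8% and 98.8%, for Nkg7 96.3% and 93.0%, for Mgp 75.4% and 85.0%, for Rgs5 88.3% and 91.8% and for Gal 65.8% and 77.7%. For Mmp9 the shares were 76.2% and 64.9%, for Popdc3 51.7% and 78.3% and for Bok 44.5% and 68.1%. Beside them, the summed T and NK cell list in members was 7.07 CPM at ZT4 and 19.1 CPM at ZT16, the mural list 32.5 and 19.1 CPM, the erythroid list 109 and 41.4 CPM and the myogenic list 94.6 and 49.9 CPM. Without the marked doublets the Mmp9 difference was -2.72 in place of -1.57, and on thinned counts it was -0.75. The part of these cells in the other genes of this set was not tested.

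**Figure D4:**
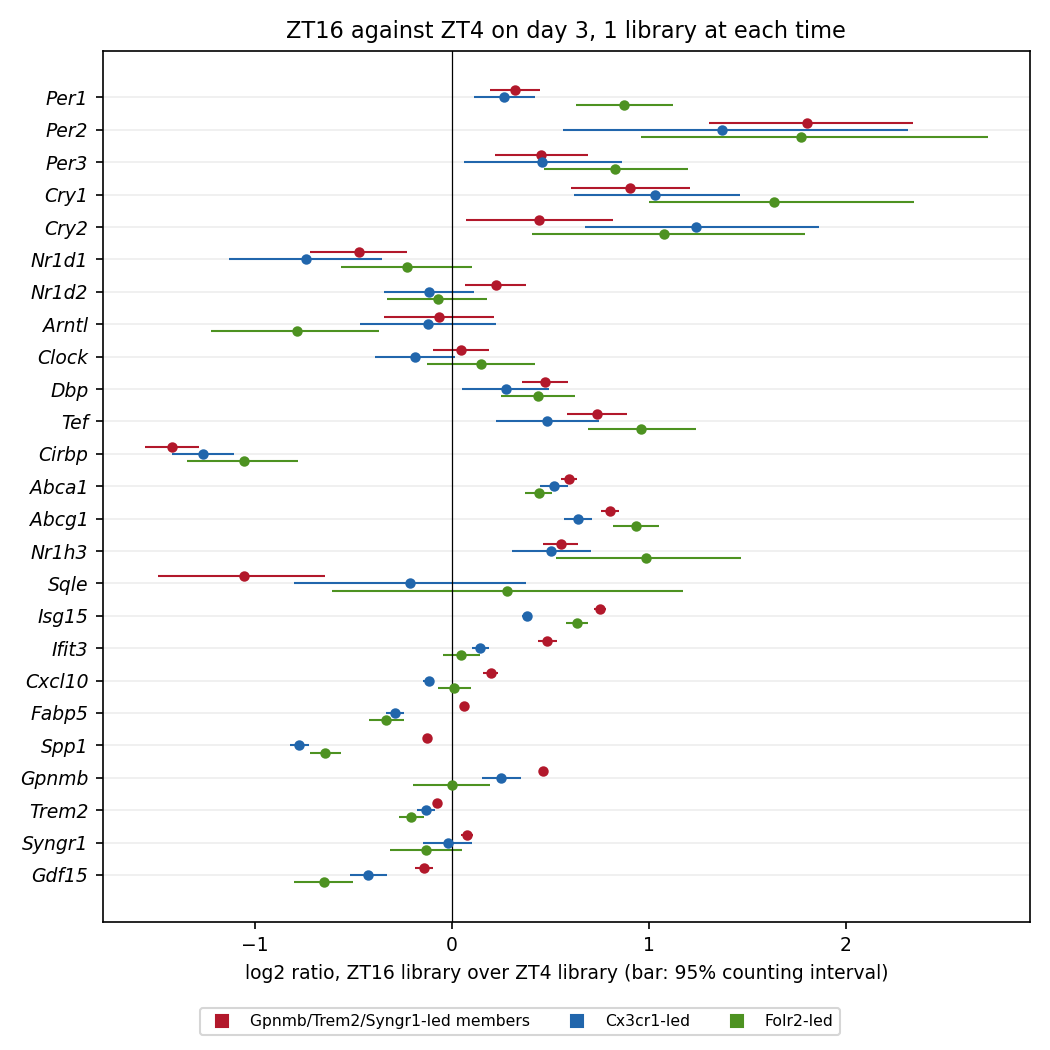
Log2 ratio of the ZT16 to the ZT4 library on day 3 for selected genes in the members, Cx3cr1-led and Folr2-led macrophages; points are 1 library against 1 and bars are 95% counting intervals. Per2 lies at 1.80 in members and Cirbp at -1.42, and both have the same sign in all 3 populations.

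The rule also found macrophages on day 1, and those barcodes differed widely from the day 3 members. Of 12141 genes, 22.9% were higher and 11.1% were lower on day 3 at both times of day. Arg1, the arginine-degrading enzyme of early wound macrophages, was at 1774 and 1052 CPM on day 1 and at 5.14 and 4.76 CPM on day 3. Fn1 went from 2972 and 2480.0 to 172 and 142 CPM, Hmox1 (haem oxygenase) from 1061 and 841 to 197 and 182 CPM, and the chemokine gene Ccl2 from 2392 and 3678 to 272 and 284 CPM. The angiogenic factor Vegfa went from 77.2 and 46.1 to 8.72 and 7.75 CPM. In each of these genes both day 1 libraries lay above both day 3 libraries.

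Other genes were higher on day 3. Apoe went from 4168 and 5825 to 31426 and 33551 CPM, Igf1 from 17.8 and 19.8 to 164 and 169.7 CPM and Gdf15 from 21.2 and 20.5 to 233 and 211 CPM. Abcg1 went from 18.8 and 21.0 to 149 and 260.0 CPM, and C1qa from 635 and 696 to 2466 and 2483 CPM. Fabp5 (2887 and 2648 CPM on day 1) and Ctsd (4478 and 3814 CPM) were within 1.5-fold of their day 3 levels, and Spp1 was lower on day 3 (from 4971 and 5101 CPM). Il7r, F7 and Mmp8, which were higher in members than in other day 3 macrophages, were at 122 and 80.2, 61.3 and 47.2, and 42.7 and 33.0 CPM on day 1, all above day 3, though Il7r at ZT16 by less than 1.5-fold.

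By list, 16 of 17 interferon-induced genes, 9 of 11 MHC II and co-stimulation genes and 20 of 20 G2M genes were higher on day 3. The LXR list had 7 of 12 and the lysosomal list 13 of 30 higher, with 0 and 1 lower. Inflammatory genes (13 of 17), glycolysis (11 of 17) and the antioxidant list (6 of 14) had more members lower. Lipid and scavenging genes were divided, 6 higher and 6 lower of 19. The rule chose by which of 3 sums was largest, and 752 of the 1323 day 1 barcodes at ZT4 and 1245 of the 2282 at ZT16 had no Gpnmb UMI, against 665 and 298 members on day 3. Whether the day 1 and day 3 barcodes are 1 lineage was not measured.

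**Figure D5:**
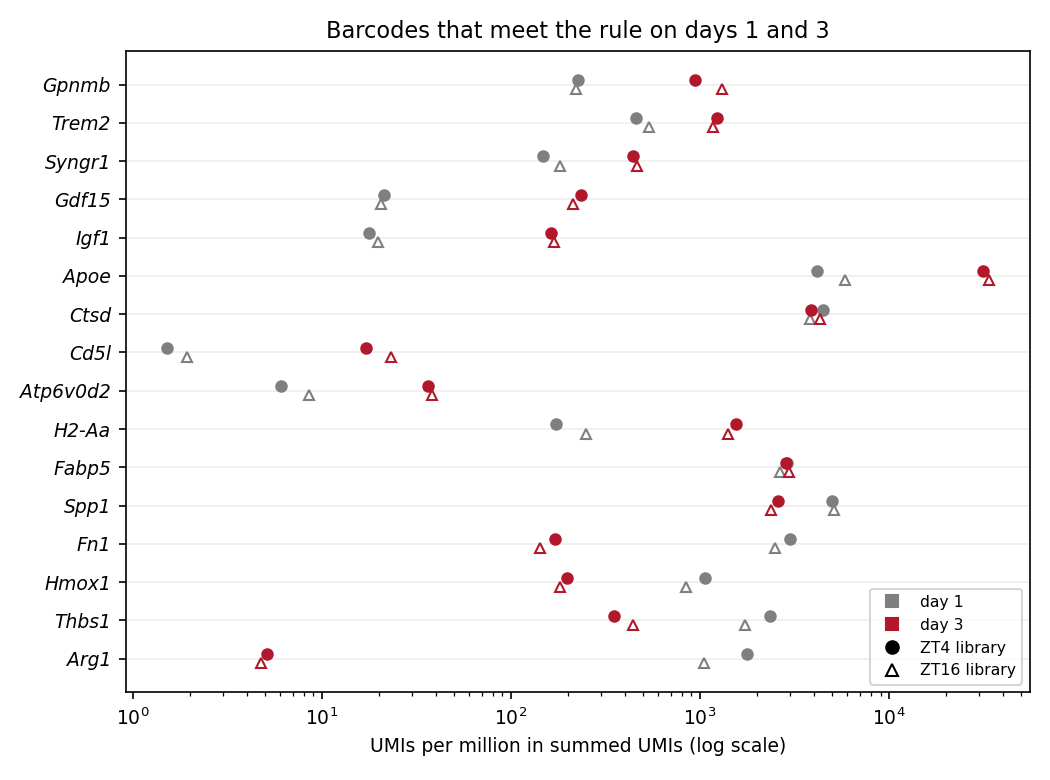
Levels in CPM (log axis) of selected genes in barcodes that met the rule on day 1 and on day 3, with circles for ZT4 and triangles for ZT16. Arg1 lies at 1774 and 1052 on day 1 and at 5.14 and 4.76 on day 3, while Apoe and Gdf15 lie higher on day 3.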

How the data were processed

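The deposited files hold raw UMI counts per gene and barcode, 1 matrix for each of 6 libraries made with a 10x Genomics 3′ v3.1 kit per the labels' protocols. Per the file headers the matrices were written by Cell Ranger 6.1.2. The submitters' processing notes instead list version 1.0.0 of it, with mm10 as the build, and no source used here gives the annotation release. Gene symbols came from the files (the first of any of 40 duplicated symbols was used), positions from GENCODE vM21 and promoters from RefSeq (GRCm38.p6). Clec7a and Mx1 were not analysed here.

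Barcodes were filtered and chosen by the rule given in the report, with counts summed over barcodes and divided by the population's total UMIs. The 6 libraries held 72747703 to 132221721 UMIs in all, and members contributed 42420771 at ZT4 and 33798988 at ZT16. Library pairs shared 21 to 65 barcodes. The 2 day 3 libraries shared 24, of which 3 were members in both, which was too few to treat apart.

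With 1 library per group there was no test, no p-value and no replicate error. Intervals are exact 95% binomial or conditional binomial and cover counting error only. Doublets were scored with Scrublet in scanpy 1.11.5, and the highest scores, 0.8% of barcodes per 1000 in the library, were marked. Clusters are Leiden clusters of the members (1500 variable genes, 20 components, 15 neighbours, resolution 0.5). Python 3.11.15, numpy 2.4.6, scipy 1.17.1, pandas 2.3.3, python-igraph 0.11.9 and matplotlib 3.10.9 were used. The ratio script was tested on simulated data.

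Genes are named where they belong to one of 45 gene lists, are among the 15 highest and 10 lowest in members (smaller fold of the 2 libraries, at least 200 UMIs in the higher arm), are among the 10 highest and 10 lowest at ZT16 (interval without 0, at least 200 UMIs), or are the 6 leading genes of a cluster. The selecting genes, Gm and Rik models, mitochondrial and ribosomal protein genes were left out of the ranked sets, and a few genes that the rule names are not reported here. The members and the gene lists were chosen with earlier results of these data known. Alternatives were a stricter rule, Cd209a barcodes kept, thinned counts, marked doublets or dividing barcodes left out, means of per-cell CPM, centring on the median gene and a minimum of 100 UMIs.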

Additional observations from a re-analysis of the deposited data

Results flagged for a closer look

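Genes of the lists were searched for opposite ZT16 to ZT4 differences in members and in a comparison population. Both differences had to reach 1.5-fold, each with an interval that excluded 0, and 4 genes met this. The marker lists of other cells, the sex-linked list and the genes of the rule were left out, and smaller opposite differences were not counted. With 1 library per time the differences between populations were not tested.

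Ctsk differed by -1 on the log2 scale in members (-1.14 to -0.86) and by 0.93 in Cx3cr1-led macrophages (0.58 to 1.28), and 10 barcodes held 62.5% of the Ctsk UMIs of members at ZT4 and 25.3% at ZT16. The Ctsk difference in members was -0.51 on thinned counts and -0.58 without dividing barcodes, both under 1.5-fold. A Ctsk UMI was found in 63.0% and 49.3% of stromal barcodes on thinned counts, against 4.98% and 4.91% of members. Without marked doublets the Ctsk difference in members was -1.15, and the part of stromal transcripts in it was otherwise not tested. Ccl5, a chemokine of T cells and macrophages, differed by -0.76 in members and by 2.16 in Folr2-led macrophages, with 87.8% and 65.4% of its UMIs in 10 members. Hells, a chromatin remodeller of S phase, differed by -0.85 in members and by 1 in Folr2-led macrophages. Uhrf1, which maintains DNA methylation at replication, differed by -0.68 in members and by 0.80 in Folr2-led macrophages.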

How the results depend on the processing

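No paired analysis was possible because each group has 1 library and the labels give no replicate numbers, and for the same reason no replicate could be left out. Of 399 alternative values for single genes 131 moved beyond their counting interval. Of 150 alternative summaries 36 were marked as moved, and called values had 0 sign changes in both sets. Among the summaries only the shares of the gate have a counting interval. Counts of genes and members were marked beyond 1.5-fold. List medians were marked beyond a half-width taken from single-gene intervals, which is not an interval of the median. Members were 52.1% of the ZT4 gate with at least 5 selecting UMIs, and 50.3% and 43.4% (ZT4 and ZT16) with Cd209a barcodes kept. Medians below average both libraries. On thinned counts the median against other gated barcodes was 0.51 for lysosomal, 0.86 for lipid and -0.71 for MHC II genes; without dividing barcodes 0.54 for lysosomal, -1.20 for monocyte and -0.76 for MHC II genes; with per-cell means 0.54 for lysosomal, 0.92 for lipid, 0.30 for V-ATPase, -1.17 for monocyte, -0.71 for MHC II and -1.14 for interferon genes. Centring gave 0.68, 1.08, 0.46, -1.01, -0.57 and -0.97 for those 6 lists, and leaving out marked doublets -1.14 for interferon genes. The 1628 lower genes became 767 on thinned counts and 1056 without dividing barcodes. For ZT16 against ZT4, thinning gave 0.98 for Per and Cry, 0.67 for interferon, 0.27 for LXR and 0.0054 for S phase genes, and centring -0.15 for oxidative phosphorylation. Without dividing barcodes G2M was at -0.061 and S phase at -0.059. The 364 higher genes became 197 with at least 100 UMIs, and the 947 lower genes 513 (thinned), 587 (without doublets), 589 (without dividing barcodes) and 483 (at least 100 UMIs). Where the construction leaves fewer genes measured the counts must fall; other causes were not tested. Genes of a few CPM, such as Per2 and Sqle, are limited by depth.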
